A study of Mus musculus with 4 samples.

Results

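The 67 genes described here are the canonical histone genes of the mouse, taken as every gene among the 20672 in the count tables whose symbol starts with Hist1h, Hist2h, Hist3h or Hist4h. They comprise 6 genes of linker histone H1, 18 of H2A, 18 of H2B, 12 of H3 and 13 of H4. Single-cell RNA was measured with 10x Genomics 3′ v2 chemistry in 4 mouse kidney libraries, and each group is 1 library. The E15.5 and P0 libraries are wild type ICR kidneys at embryonic day 15.5 and on the day of birth, and the E17.5 library is wild type C57BL/6 kidney at embryonic day 17.5. The transplant library is wild type C57BL/6N kidney taken from embryos at E12.5 and left for 12 days within the epididymal fat pad of a host, which the study's design text calls an immunodeficient NOD mouse and the sample label a C57BL/6N mouse. Strain label and the version of the counting software go together between libraries and cannot be told apart: E17.5 and the transplant carry C57BL/6 labels and version 3.1.0, and E15.5 and P0 carry ICR labels and version 3.0.2. With 1 library a group there is no test between groups, and every interval below is a 95% interval for counting error only.

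Most of these genes are replication-dependent. Their mRNAs are made as DNA is copied in S phase, they usually end in a conserved stem-loop and not in a poly(A) tail, the stem-loop binding protein SLBP carries them through processing and translation, and they are degraded when replication stops. The H2A, H2B, H3 and H4 proteins form the core around which DNA is wrapped, and H1 binds the linker DNA between cores. A few members are known to be made also as polyadenylated mRNA that persists outside S phase. Hist1h1c, Hist1h2bc, Hist2h2be, Hist3h2a and Hist4h4 were taken as 5 such known polyadenylated members. The capture step of the chemistry primes on poly(A), so a level here is a share of captured UMIs (unique molecular identifiers, 1 per captured molecule) and not a share of all histone mRNA.

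The stem-loop is shown first because it is the sequence that sets these mRNAs apart. In the gene models 45 of 67 members (67.2%) held it within 100 bases after the coding end, starting 22 to 59 bases after it, in 8 different sequences. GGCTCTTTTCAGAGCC was found in 25 models of H1, H2A, H2B and H3 genes, and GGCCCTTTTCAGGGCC in 7 models, all of H4 genes. The lines below give members the results turn on, from 5 bases before the stem-loop to 5 after it where the model goes on that far, with the stem-loop in capitals.
Hist1h2ap: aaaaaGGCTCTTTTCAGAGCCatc
Hist1h2ae: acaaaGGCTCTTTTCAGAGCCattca
Hist1h1e: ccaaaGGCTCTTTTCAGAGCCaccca
Hist1h1c: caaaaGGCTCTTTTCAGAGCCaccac
Hist3h2a: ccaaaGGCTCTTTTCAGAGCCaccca
Hist3h2ba: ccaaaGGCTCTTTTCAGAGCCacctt
Hist4h4: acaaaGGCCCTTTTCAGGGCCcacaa
Among the 5 known polyadenylated members, Hist1h1c, Hist3h2a and Hist4h4 held the same stem-loop as members of their family that are not on that list. Their models continued for 840, 1643 and 2445 bases past it. The Hist1h2ap model stopped 3 bases past it, and that of Hist3h2ba went on for 169 bases. No stem-loop was found in the models of the other 2 listed members, Hist1h2bc and Hist2h2be, which run 742 and 2192 bases past their coding ends. Each model is 1 transcript of its gene, the one with the most bases after the coding end, and that of Hist1h2bc has 2 exons. A stem-loop in another transcript of a gene would not be counted. Of the 22 models without a match, 15 stopped within 20 bases of the coding end, among them Hist1h1b, so that these models hold no sequence in which it could be found.

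The members lie in clusters, 54 on chromosome 13, 10 on chromosome 3, 2 on chromosome 11 and 1 on chromosome 6, and 62 models have a single exon. RefSeq promoter windows (build GRCm38.p6, 250 bases before the start to 50 after it) were matched for 62 members. The motif CCAAT was present on either strand in 53 of them (85.5%, against 37.9% of the windows of 27025 genes), TATAAA in 35 (56.5% against 14.2%) and the octamer ATTTGCAT in 13 (21% against 1.75%). CCAAT was found in every H1, H2A, H2B and H3 window and in 3 of 12 H4 windows. All 13 octamers were in H2A and H2B windows. The 250 bases before the start are shown for Hist1h1b, a member far higher in S-scored cells, and for the chromosome 11 pair Hist3h2a and Hist3h2ba, which were not, with these motifs in capitals. The windows are chr13:21780576-21780875 on the minus strand for Hist1h1b, chr11:58954435-58954734 on the plus strand for Hist3h2a and chr11:58948661-58948960 on the plus strand for Hist3h2ba.
Hist1h1b: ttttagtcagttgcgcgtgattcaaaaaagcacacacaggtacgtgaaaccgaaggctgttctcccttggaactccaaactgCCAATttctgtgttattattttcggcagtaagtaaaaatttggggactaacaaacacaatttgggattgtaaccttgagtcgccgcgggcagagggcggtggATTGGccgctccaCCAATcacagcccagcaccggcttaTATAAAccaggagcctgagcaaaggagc
Hist3h2a: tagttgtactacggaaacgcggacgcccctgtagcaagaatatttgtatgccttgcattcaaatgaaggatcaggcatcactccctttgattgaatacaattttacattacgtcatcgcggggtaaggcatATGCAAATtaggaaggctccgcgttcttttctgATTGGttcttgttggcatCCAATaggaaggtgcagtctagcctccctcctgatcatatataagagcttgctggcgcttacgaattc
Hist3h2ba: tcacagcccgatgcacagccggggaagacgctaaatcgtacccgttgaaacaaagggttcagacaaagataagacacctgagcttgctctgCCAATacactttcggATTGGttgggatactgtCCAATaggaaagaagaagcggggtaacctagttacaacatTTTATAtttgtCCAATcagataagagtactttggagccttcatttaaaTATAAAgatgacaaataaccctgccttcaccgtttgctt
CCAAT thus stood in all 3 windows, including those of members whose mRNA was not higher in S-scored cells, and TATAAA in those of Hist1h1b and Hist3h2ba. A match describes the letters only.

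After filtering, 3463 cells were used in E15.5, 4396 in E17.5, 7568 in P0 and 6268 in the transplant, with a median of 22585, 7197.5, 9885.5 and 6276.5 UMIs per cell. Between 19 and 60 cell barcodes were shared by any pair of libraries, at most 1.05% of the smaller one. Over all cells 297833 UMIs fell on members. Of the 67 members, 51 had at least 200 UMIs, 22 at least 1000, 6 fewer than 20, and 2 (Hist1h2bq and Hist1h2ba) none. The 12 members with the most UMIs took 89.5% of them, and Hist1h2ap, an H2A gene on chromosome 13 (21833026 to 21833507 in GRCm38), took 32.5%. Its annotated 3′ end is shared in full with Hist1h2ao, and 36 members share at least 50% of the 50-base stretches of their last 350 bases with another member. How the counting software split such reads is not given in the sources used here, so values of single near-identical members are uncertain. Hist1h1e and Hist1h2be overlap by 496 bases on the same strand and carry the same uncertainty.

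Summed over all cells of a library, histone UMIs made up 1170 of 1000000 UMIs (CPM) in E15.5, 1783 in E17.5, 1114 in P0 and 574 in the transplant. The transplant was lowest, and the counting intervals of the 4 libraries did not overlap. The 5 known polyadenylated members had another order and were highest in the transplant, with 120 CPM in E15.5, 274 in E17.5, 252 in P0 and 379 in the transplant. They were 10.2% of member UMIs in E15.5, 15.4% in E17.5, 22.6% in P0 and 66.0% in the transplant. Hist1h2ap was at 533, 400, 390 and 20.6 CPM in the same order. The transplant thus had a far lower level of Hist1h2ap than any other library and the highest level (CPM) of the polyadenylated members. Summed levels of 16 genes of the dissociation stress response also differed, at 2585 CPM in E15.5, 7927 in E17.5, 9751 in P0 and 7709 in the transplant, and their part in these differences was not tested.

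To set the members against the cell cycle, each cell with at least 3000 UMIs was thinned to 3000 and scored by how many of 38 S-phase genes and 42 G2M-phase genes kept a UMI. No histone gene is in either list. A cell was called S-scored with at least 4 S genes and no more G2M than S genes, and low-scored with at most 1 of each. These are ranges of a score and not cell types, and 10.4% to 22.9% of the thinned cells of a library had 3 or 4 S genes, just outside and just inside that limit. S-scored cells were 34.2% of thinned cells in E15.5, 22.5% in E17.5, 17.1% in P0 and 6.09% in the transplant. Low-scored cells were 12.7%, 26.8%, 38.4% and 57.7%.

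Hist1h2ap was the member with the most UMIs that followed the score. It stood at 684 CPM in S-scored and 23.8 in low-scored cells in E15.5, at 583 and 13.3 in E17.5, at 836 and 19.4 in P0, and at 66.6 and 2.67 in the transplant. The ratios were 28.7 (25.1 to 33.0), 43.9 (36.6 to 53.0), 43.0 (39.5 to 47.0) and 24.9 (19.1 to 32.9). The ratio was thus of the same order in all 4 libraries although the S-scored level of the transplant was under that of every other library. The linker histone Hist1h1b stood at 152 and 5.15 CPM in E15.5, 312 and 12.1 in E17.5, 117 and 6.56 in P0, and 38.9 and 1.05 in the transplant, with ratios of 29.6, 25.9, 17.8 and 36.9. The H2A gene Hist1h2ae had ratios of 8.62, 20.9, 22.6 and 12.4, and the linker histone Hist1h1a of 9.95, 30.7, 17.3 and 7.26, the latter on only 20 UMIs in the S-scored cells of the transplant. Hist1h1e, another linker histone, was less steep, with ratios of 4.2 (3.67 to 4.83), 2.98 (2.77 to 3.22), 2.69 (2.49 to 2.90) and 1.30 (1.08 to 1.55), lowest in the transplant.

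A second set of members was lower in S-scored cells in every library. Hist1h2bc, a polyadenylated H2B gene, stood at 22.1 CPM in S-scored and 36.3 in low-scored cells in E15.5, 72.4 and 240 in E17.5, 48.4 and 123 in P0, and 103 and 219 in the transplant. Its ratios were 0.61 (0.53 to 0.70), 0.30 (0.28 to 0.33), 0.39 (0.36 to 0.42) and 0.47 (0.42 to 0.53). Hist3h2a, a polyadenylated H2A gene, had ratios of 0.49, 0.55, 0.51 and 0.48, and the linker histone Hist1h1c of 0.85, 0.69, 0.63 and 0.73. Hist3h2ba is an H2B gene that was not on the polyadenylated list and was singled out after its values had been seen, with ratios of 0.56 (0.53 to 0.61), 0.83 (0.75 to 0.91), 0.72 (0.67 to 0.77) and 0.51 (0.41 to 0.63). These were the 4 members whose interval lay below 1 in every library, among the 23 that had at least 20 UMIs in the comparison in all 4. The share of all genes with an interval below 1 in every library was not counted. The other two listed polyadenylated members were measured at 1.0, 0.90, 1.0 and 0.53 (Hist2h2be) and 1.70, 1.59, 1.20 and 1.20 (Hist4h4), on as few as 8 and 21 UMIs in the S-scored cells of the transplant. Members with the same symbol prefix thus differed in direction.

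**Figure D1:**
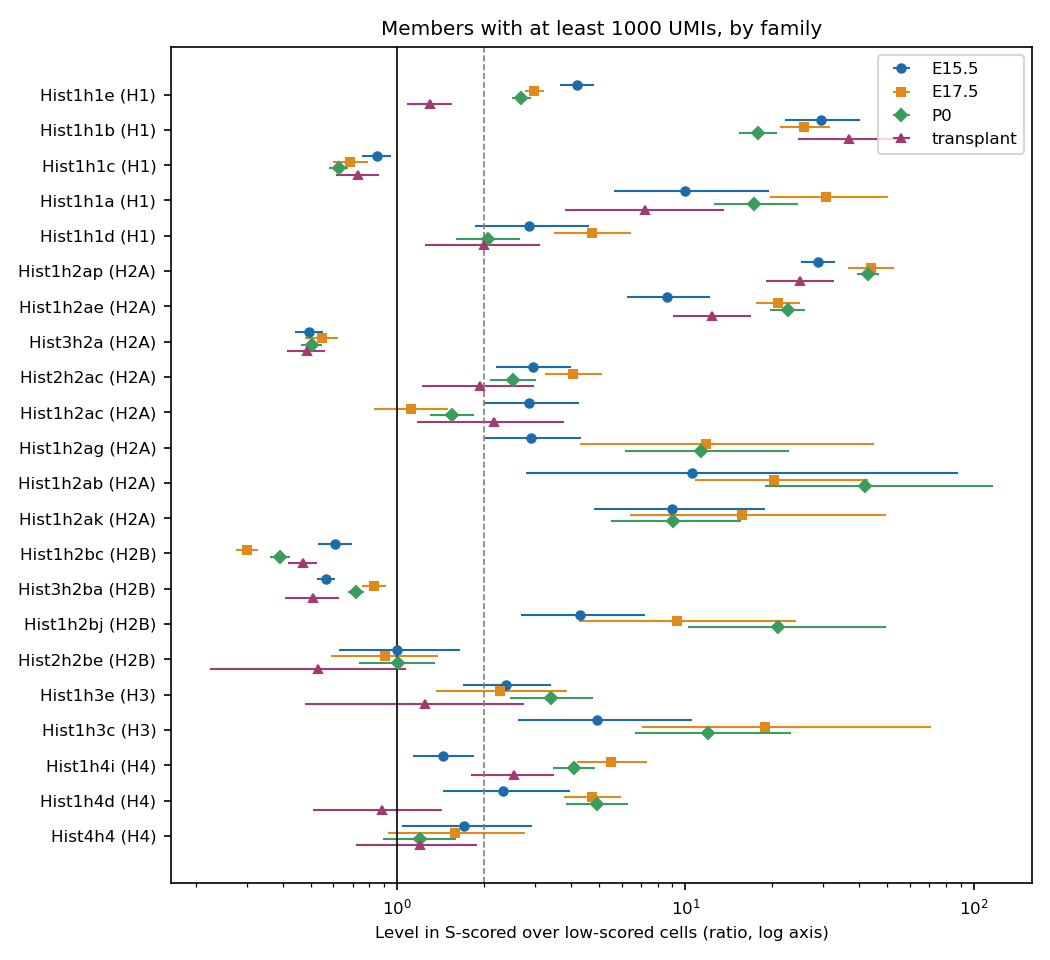
Level in S-scored over low-scored cells (ratio, log axis) for the 22 members with at least 1000 UMIs, grouped by family, in each library. Points are ratios of pooled CPM, bars are 95% counting intervals, the solid line is a ratio of 1 and the dashed line a ratio of 2, and a member is drawn in a library only with at least 20 UMIs in the comparison. Hist1h2ap and Hist1h1b lie far to the right in all 4 libraries, while Hist1h2bc, Hist3h2a, Hist3h2ba and Hist1h1c lie left of 1.

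Counted over members with at least 20 UMIs in both groups of cells together, 43 of 56 members were at least 2-fold higher in S-scored cells at E15.5, where 6.62% of all genes counted were, and 1 was at least 2-fold lower, against 8.71% of all genes. At E17.5, 25 of 36 were at least 2-fold higher, against 9.75%, and 2 at least 2-fold lower, against 13.9%. At P0, 35 of 51 were higher, against 7.29%, and 2 lower, against 14.2%. In the transplant, 9 of 26 were higher, against 8.41%, and 4 lower, against 8.7%. The median ratio of the members counted was 2.79 in E15.5, 5.13 in E17.5, 4.09 in P0 and 1.22 in the transplant, beside 0.980, 0.959, 0.909 and 0.976 over all genes. A member with few UMIs could be counted mainly through the cells in which it was high, so these counts describe the members counted and not all 67. Of the 23 members counted in every library, 6 were at least 2-fold higher in all 4: Hist1h1a, Hist1h1b, Hist1h1d, Hist1h2ae, Hist1h2ap and Hist1h3d. They are 3 linker histones, 2 H2A genes and 1 H3 gene, and Hist1h3d rested on 9 UMIs in the S-scored cells of the transplant. The share of all genes at least 2-fold higher in all 4 libraries was not counted, so how unusual this number is was not tested.

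The sum over all 67 members hid this division. It was 3.47 times as high in S-scored as in low-scored cells in E15.5, 3.06 in E17.5, 3.12 in P0 and 0.936 (0.890 to 0.985) in the transplant, where it was slightly lower. The 5 polyadenylated members summed to ratios of 0.658, 0.424, 0.507 and 0.526. The 61 members left without these 5 and without Hist3h2ba summed to 9.61, 8.57, 10.9 and 3.05. Hist3h2ba was left out after its own ratios below 1 had been seen, so the ratio of the 61 is raised by that choice. The polyadenylated members were 66.0% of the transplant's histone UMIs, and without them but with Hist3h2ba kept the ratio there was 2.06. Its direction also depended on the score rule. The ratio was 1.16 with cells thinned to 2000 UMIs, and by the number of S genes alone the sum was at 584 CPM in transplant cells with none, 698 in those with 4 to 6 and 1175 in those with 7 or more. S-scored cells also came from other classes there, with 29.2% of them endothelium-like and 4.69% early nephron-like, against 10.6% and 35.1% at P0.

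By family, the H2A genes without polyadenylated members had the highest summed ratios, 17.2 in E15.5, 17.9 in E17.5, 21.6 in P0 and 7.78 in the transplant. The H1 genes without Hist1h1c stood at 8.21, 5.75, 5.02 and 2.39. The 18 H2B genes summed to 0.808, 0.537, 0.673 and 0.513, below 1 in every library. The 15 left without Hist1h2bc, Hist2h2be and Hist3h2ba summed to 3.86, 4.43, 5.31 and 4.28. These values were under those of H1 in E15.5 and E17.5 and over them in P0 and the transplant. They are raised by leaving out Hist3h2ba, whose ratios below 1 had been seen. The H3 genes stood at 2.44, 3.12, 3.30 and 1.56, and the H4 genes at 1.78, 3.97, 2.84 and 1.43. H3 genes gave 1.53% to 2.94%, H4 genes 2.91% to 5.52% and the 15 H2B genes 0.839% to 3.66% of the member UMIs of a library, so their ratios rest on few molecules. The interval of the 15 H2B genes was 2.76 to 6.53 in the transplant. At P0 it was 4.46 to 6.35 and held that of the H1 genes without Hist1h1c (4.73 to 5.34).

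Some neighbouring members differed in this comparison. Within 1000 bases of each other, 13 pairs of members start head to head. Hist1h2ac and Hist1h2bc start 251 bases apart, and Hist1h2ac had ratios of 2.87, 1.12, 1.55 and 2.17 where Hist1h2bc had 0.61, 0.30, 0.39 and 0.47. Hist2h2ac and Hist2h2be start 239 bases apart, with ratios of 2.95, 4.08, 2.52 and 1.93 for Hist2h2ac and of 1.0, 0.90, 1.0 and 0.53 for Hist2h2be. In both pairs the H2A partner had the higher ratio in each library, and the H2B partner is a polyadenylated member without a stem-loop in its model. Hist1h2ap starts 236 bases from the H2B gene Hist1h2br, which had 414 UMIs against 96712 for Hist1h2ap, although its model shares its whole 3′ end with that of Hist1h2bq.

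The score was then split further, to see in which of its ranges the members were highest. Position in the cycle was not measured. Hist1h2ap in cells with at least 4 S genes and at most 1 G2M gene was at 131 CPM in E15.5, 66.9 in E17.5, 79.9 in P0 and 10.4 in the transplant. In cells with at least 4 genes of both lists it was at 1117, 1159, 1482 and 342 CPM. In cells with at least 4 G2M genes and at most 1 S gene it was at 253, 218, 364 and 31.8 CPM. Cells with both programmes were highest in all 4 libraries, and G2M-only cells lay above S-only cells. Hist1h1b had the same order, with 30.0, 253 and 58.6 CPM at E15.5 and 5.20, 181 and 13.6 in the transplant, the last on 38 cells with an interval of 5.0 to 29.7.

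**Figure D2:**
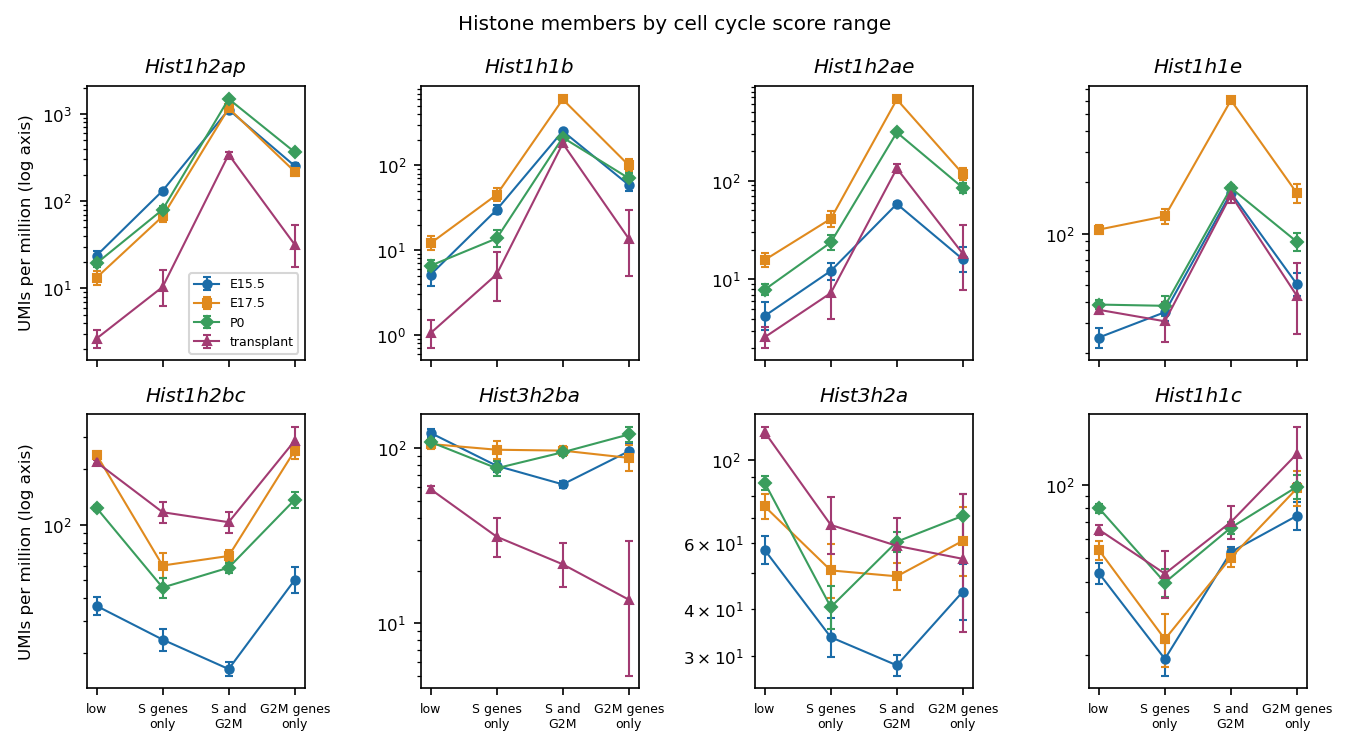
CPM (UMIs of 1000000, log axis, pooled over the cells of a range) of 8 members in low-scored cells, cells with S genes only, with S and G2M genes, and with G2M genes only, by library. Bars are 95% counting intervals. In the upper row the level peaks in cells with both S and G2M genes, where Hist1h2ap reaches 1482 at P0 and 342 in the transplant. In the lower row Hist1h2bc is lowest in the 2 middle ranges and near its low-scored level in G2M-only cells.

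The polyadenylated members had another pattern over these ranges. Hist1h2bc was at 36.3, 240, 123 and 219 CPM in low-scored cells of E15.5, E17.5, P0 and the transplant. It was at 16.5, 67.7, 58.5 and 103 in cells with both programmes, and at 50.2, 253, 137 and 286 in G2M-only cells. It was thus low where Hist1h2ap was highest and at or above the low-scored level in G2M-only cells of all 4 libraries. Hist1h1c was lowest in S-only cells, at 19.3, 23.2, 39.7 and 43.2 CPM, and highest in G2M-only cells, at 74.6, 96.6, 98.1 and 134. In the transplant the G2M-only range held 38 cells. Hist3h2ba in the transplant was at 58.2 CPM in low-scored cells, 21.7 in cells with both programmes and 13.6 (5.0 to 29.7) in G2M-only cells, while at P0 it was at 108, 94.8 and 120.

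Ordered by the number of S genes alone, in 5 bins, Hist1h2ap was higher at each step, from 30.2 CPM in cells with none to 1084 in cells with 7 or more in E15.5, from 12.9 to 1076 in E17.5, from 28.5 to 1323 in P0 and from 3.12 to 295 in the transplant. The 5 polyadenylated members went from 169 to 100, from 420 to 146, from 327 to 157 and from 428 to 186 CPM between the same ends. In cells thinned to the same 3000 UMIs, a Hist1h2ap UMI was present in 71.2% of cells with both programmes in E15.5, 76.4% in E17.5, 79.2% in P0 and 54.0% in the transplant. In low-scored cells it was present in 8.73%, 3.8%, 5.61% and 0.65%. Without thinning these shares were 92.2%, 85.2%, 90.0% and 77.8% against 30.7%, 8.24%, 14.8% and 2.78%, at a median of 29245.5 and 18703 UMIs per cell at E15.5. The low-scored share was highest in the deepest library with and without thinning. The share of it that comes from RNA free in the droplets was not tested.

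Cells were next placed in classes by marker genes. A thinned cell took a class when at least 2 of its markers kept a UMI and more than of any other class, a rule set after the data had been seen, and classes are written as X-like. Of the class markers, at least 5 were 2-fold or more above the other classes in every class and library shown. The same markers placed the cells, so this was largely built in and is no separate check of the classes. The early nephron markers include the cell cycle gene Ccnd1, so the cycling of that class is in part built in. Leaving Ccnd1 out moved the median class level of all members from 933 to 968 CPM. In all, 13 classes reached 20 cells in some library, 45 class and library pairs in all. No nephron progenitor-like cell was found among the 4546 thinned cells of the transplant, which allows a share of up to 0.066%.

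Hist1h2ap was highest in early nephron-like cells in the 3 kidneys taken directly, at 816 CPM in E15.5, 827 in E17.5 and 883 in P0, against 44.1 in the transplant. These are cells between the progenitor and the segmented tubule. In podocyte-like cells, the filter cells of the glomerulus, it was at 166, 43.4, 66.6 and 3.52 CPM, and in proximal tubule-like cells, which reabsorb most of the filtrate, at 77.5, 58.1, 30.1 and 3.71. In the transplant it was highest in endothelium-like cells, at 101 CPM. The share of cells with at least 4 S or 4 G2M genes followed a like order. It was 91.6%, 85.9%, 72.2% and 23.2% in early nephron-like cells, 13.5%, 6.21%, 3.64% and 0.75% in podocyte-like cells, and 73.1%, 62.9%, 32.1% and 32.1% in endothelium-like cells. Over the 45 class and library pairs, the summed level of the 61 members and this share had a Spearman rho of 0.894, and of 0.895, 0.918, 0.909 and 0.827 within E15.5, E17.5, P0 and the transplant. For the 5 polyadenylated members rho was -0.560 over all pairs, and -0.685, -0.364, -0.40 and -0.20 within the same libraries, so that the pooled value mixes libraries and the relation was weak within all but E15.5. The pairs share libraries, depth and the UMIs of the same cells, so these values describe the pattern only. The 61 members leave out Hist3h2ba, a choice made after its values had been seen, and rho with it kept is not given.

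**Figure D3:**
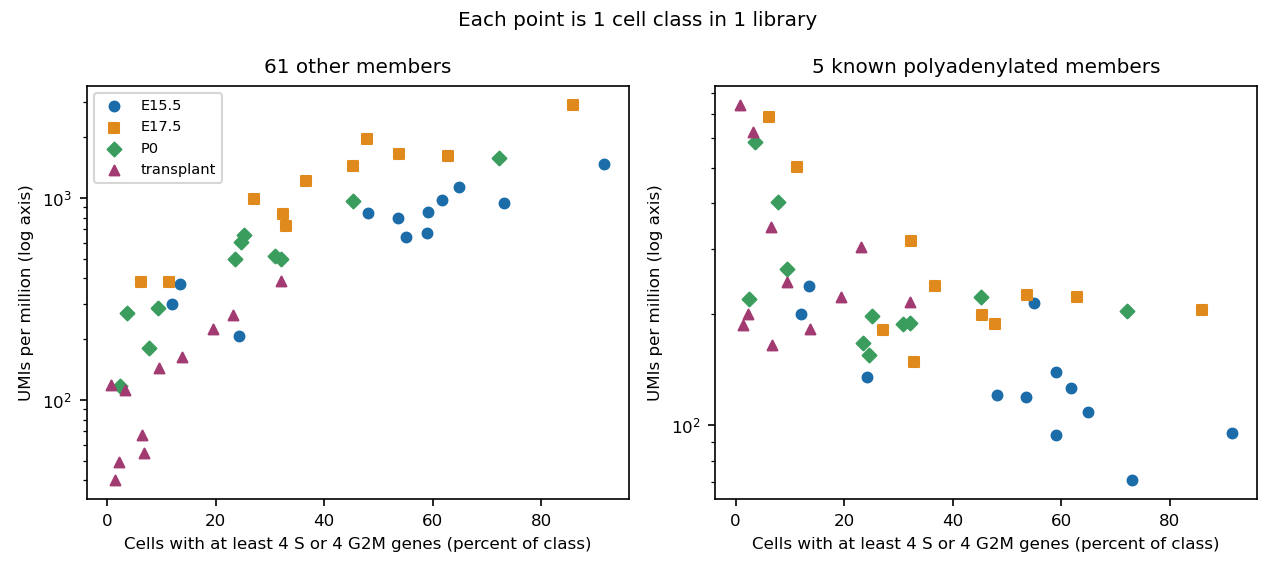
Each point is 1 cell class in 1 library. The x axis is the percent of its cells with at least 4 S or 4 G2M genes, and the y axis the summed level (CPM, log axis) of 61 members on the left and of the 5 known polyadenylated members on the right. Hist3h2ba is in neither sum and was left out after its values had been seen. On the left the level goes up with the share in each library (rho 0.894 over 45 points), and on the right rho is -0.560 over all points but only -0.20 within the transplant.

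Members outside this pattern were highest in particular classes. Hist3h2ba was highest in podocyte-like cells in every library, at 438 CPM in E15.5, 399 in E17.5, 534 in P0 and 326 in the transplant. Nephron progenitor-like cells had 173, 196 and 125 CPM at E15.5, E17.5 and P0, and early nephron-like cells 85.0, 142, 133 and 79.7 in the 4 libraries. Endothelium-like cells were at 11.7, 21, 14.9 and 8.93 CPM. The interval of podocyte-like cells lay above that of every other class in each library. Its neighbour on chromosome 11, Hist3h2a, was also highest in podocyte-like cells, at 116, 153, 204 and 192 CPM, with proximal tubule-like cells of the transplant at 149. Hist2h3c2, an H3 gene with few UMIs, was at 10.3 CPM (31 UMIs) in podocyte-like cells at P0 and 9.56 (33 UMIs) in the transplant. Its S-scored over low-scored ratio was 0.25 and 0.15 in these libraries. All cells with at least 4 S or 4 G2M genes held only 15 of its UMIs at P0 and 3 in the transplant, so these ratios are uncertain.

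Hist1h2bc was high in the same podocyte-like cells, at 37.6 CPM in E15.5, 397 in E17.5, 158 in P0 and 371 in the transplant, and in proximal tubule-like cells, at 55.5, 373, 236 and 383. In early nephron-like cells it was at 19.4, 95, 70.2 and 118 CPM. E15.5 was lowest in all 3 classes. Hist1h1c was at 79.3, 126, 217 and 161 CPM in podocyte-like cells, and at 172 in erythroid-like and 158 in macrophage-like cells of E15.5. Hist4h4 was at 22.7 CPM in stroma-like cells of the transplant, on 94 UMIs, and at 9.84 in those of P0.

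**Figure D4:**
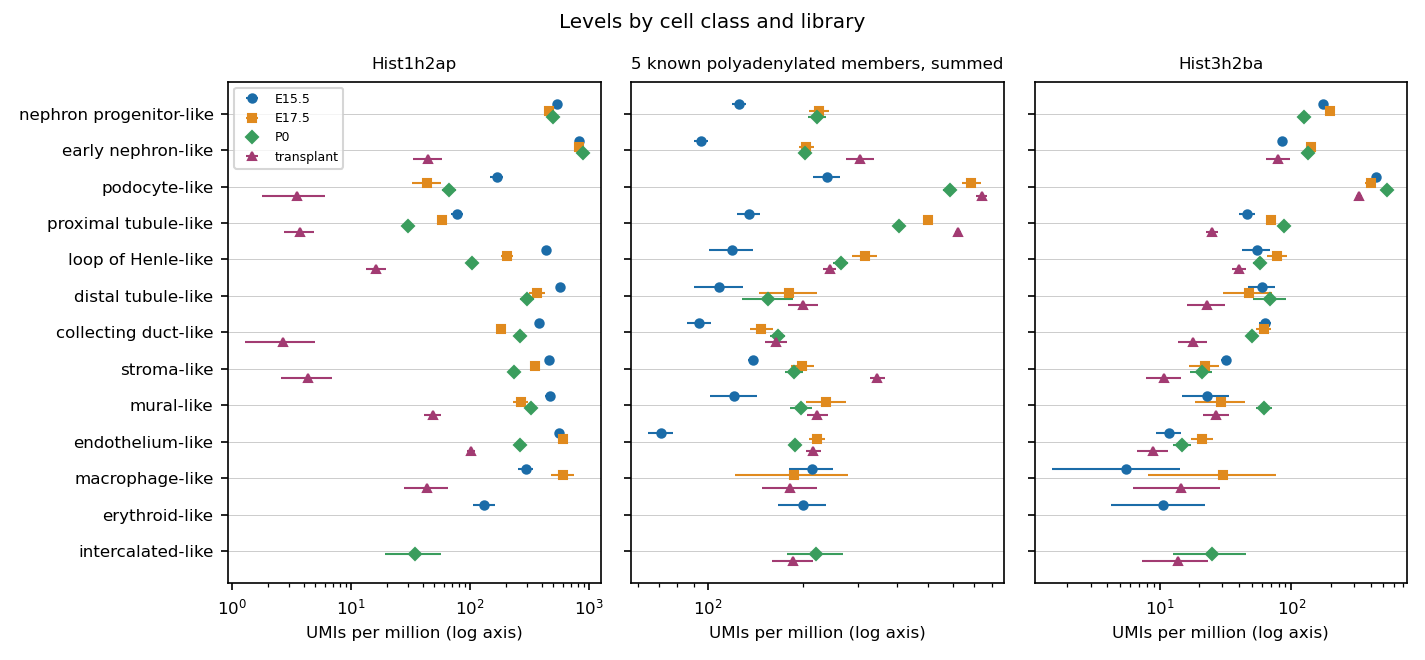
CPM (log axis) of Hist1h2ap, of the 5 known polyadenylated members summed and of Hist3h2ba in each cell class, by library. Points are pooled levels, bars are 95% counting intervals, and a class with no UMI is not drawn. Hist1h2ap in the transplant lies left of the other libraries in every class compared, the polyadenylated sum is highest in podocyte-like cells in every library, with proximal tubule-like cells next in E17.5, P0 and the transplant but not in E15.5, and Hist3h2ba is highest in podocyte-like cells.

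Because classes differ in cycling, the score comparison was repeated within classes. In 22 class and library pairs with at least 20 S-scored and 20 low-scored cells, Hist1h2ap had a ratio above 1 beyond its interval in 21, with a median ratio of 26.4. The exception was proximal tubule-like cells of the transplant, with 1 UMI in 24 S-scored cells (ratio 1.26, interval 0.03 to 7.73). Hist3h2a was lower beyond its interval in 15 of 22 pairs and higher in none, with a median of 0.55. Hist1h2bc was lower in 13 and higher in 1, endothelium-like cells at E17.5, where it stood at 115 CPM in S-scored and 64.6 in low-scored cells. Hist3h2ba was lower in 8 and higher in none, with a median of 0.73, and Hist1h1c lower in 6 and higher in 3. The median ratio of Hist1h1c was 0.79, and most intervals of Hist3h2ba and Hist1h1c held 1. The difference of these members from Hist3h2a was not tested.

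Between libraries the same class was compared, where each held at least 20 cells. For all members summed, P0 over E15.5 was lower beyond the interval in 6 of 10 classes and higher in 4, with a median ratio of 0.894. E17.5 over E15.5 was higher in 10 of 11, with a median of 1.63 (distal tubule-like cells, 0.939, had an interval of 0.854 to 1.03). The transplant was lower than P0 in 9 of 10 classes, with a median of 0.625, and lower than E17.5 in 10 of 10, with a median of 0.287. Each library enters 2 of these comparisons, so they are not independent. Hist1h2ap alone was lower in P0 than in E15.5 in 9 classes and higher in 1, early nephron-like cells (1.08). It was lower in the transplant than in P0 in all 10, with a median of 0.072. The known polyadenylated members were higher in P0 than in E15.5 in all 10 classes and in the transplant than in P0 in 7, and lower in 1, so that the sum over all members mixed opposite differences. Against E17.5, the polyadenylated members were higher in the transplant in only 3 of 10 classes and lower in 1, with a median ratio of 1.09. In proximal tubule-like cells the transplant sum was 761 CPM against 673 at P0 (1.13). Without the 5 polyadenylated members the ratio there was 0.508.

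The share of scored cells within a class also differed between libraries, so S-scored cells of the same class were set against each other. Endothelium-like cells had 32.1% of cells scored in both P0 and the transplant. The S-scored cells of both had a median of 6 S genes, and summed S-list levels were 2500 and 2786 CPM. They were not matched for G2M genes, with a median of 2 at P0 and 1 in the transplant and summed G2M-list levels of 1589 and 1502 CPM. In these cells Hist1h2ap was at 616 CPM in E15.5 (72 cells), 560 in E17.5 (106 cells), 368 in P0 (125 cells) and 102 in the transplant (81 cells). The transplant was at 0.278 times the P0 level (0.222 to 0.344). Hist1h1b was at 77.0 CPM in the transplant and 33.8 at P0, 2.28 times as high (1.60 to 3.26), and Hist1h1e at 54.8 and 24.8, 2.21 times as high (1.45 to 3.38). Hist1h2ae was at 50.6 and 91.2 CPM (0.555, 0.393 to 0.770). Against P0 the members thus differed in opposite directions in endothelium-like cells. This was not seen beyond the intervals in the other 3 classes compared. Against E17.5, each of these members was lower in the S-scored endothelium-like cells of the transplant. The ratios were 0.183 for Hist1h2ap, 0.219 for Hist1h2ae, 0.313 (0.239 to 0.404) for Hist1h1b and 0.251 (0.183 to 0.338) for Hist1h1e. In S-scored mural-like cells Hist1h2ap was at 69.9 CPM in the transplant and 549 at P0. Hist1h1b (0.389, 0.174 to 0.787) and Hist1h2ae (0.390, 0.182 to 0.765) were also lower in the transplant, while the interval of Hist1h1e held 1 (1.17, 0.559 to 2.37). These mural-like cells had a median of 10 S genes in the transplant and 8 at P0. Their summed S-list levels were 3948 and 3658 CPM, and their G2M-list levels 1425 and 1426. In loop of Henle-like cells the transplant was at 0.104 times the P0 level for Hist1h2ap, 0.166 for Hist1h1b and 0.356 for Hist1h1e. The S-scored cells of this class were not alike, with a median of 4 S genes in the transplant and 5 at P0. Their summed S-list levels were 1144 and 2530 CPM, and their G2M-list levels 476 and 1222. In stroma-like cells Hist1h2ap was at 30.4 and 413 CPM, and the ratios of Hist1h1b and Hist1h1e were 0.0568 (on 1 UMI in the transplant) and 0.228 (on 5), although stroma-like cells of the transplant had a median of 4 S genes against 6 at P0.

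Between P0 and E15.5 the S-scored cells of 5 classes could be compared. Hist1h2ap at P0 was at 2.0 times its E15.5 level (1.81 to 2.22) in collecting duct-like, 1.27 (1.18 to 1.37) in nephron progenitor-like and 1.16 (1.13 to 1.20) in early nephron-like cells, and at 0.783 (0.697 to 0.877) in stroma-like and 0.597 (0.544 to 0.656) in endothelium-like cells. Among S-scored cells it was therefore higher at P0 in 3 of these 5 classes, whereas over all cells of a class it was higher in early nephron-like cells alone.

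Members also differed from each other between E17.5 and E15.5. In S-scored cells of 5 classes, Hist1h2ap at E17.5 was at 0.755 to 0.928 times its E15.5 level, while Hist1h2ae was at 7.05 to 11.8 times, Hist1h1e at 2.22 to 4.25 times and Hist1h1b at 1.63 to 2.11 times. Hist1h2ae in early nephron-like cells was at 486 CPM in E17.5 and 48.7 in E15.5, and in stroma-like cells at 262 and 30.5. P0 lay between, at 221 CPM in early nephron-like and 70.3 in stroma-like cells. Hist1h4d, an H4 gene, was higher in E17.5 than in E15.5 in 11 of 11 classes over all cells, with a median ratio of 14.3.

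In all scored cells together (at least 4 S or 4 G2M genes), Hist1h2ap made up 49.8% of member UMIs in E15.5, 26.9% in E17.5, 47.1% in P0 and 18% in the transplant. There were 4.45 Hist1h2ap UMIs per Hist1h1b UMI in E15.5 (4.35 to 4.54), 1.92 in E17.5 (1.87 to 1.97), 6.67 in P0 (6.47 to 6.87) and 1.86 in the transplant (1.67 to 2.08). Per Hist1h1e UMI there were 6.11, 1.76, 7.06 and 1.67. The E17.5 and transplant libraries were low in both measures and the E15.5 and P0 libraries high, and their intervals did not overlap. Strain label, software version and library cannot be told apart in this difference. Per Hist1h2ae UMI the values were 18.2, 1.76, 4.67 and 2.58, with E15.5 far above the rest. Within classes, Hist1h2ap per Hist1h1b was 3.31 to 5.94 in E15.5, 1.27 to 3.35 in E17.5, 3.00 to 8.89 in P0 and 1.60 to 2.12 in the transplant.

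**Figure D5:**
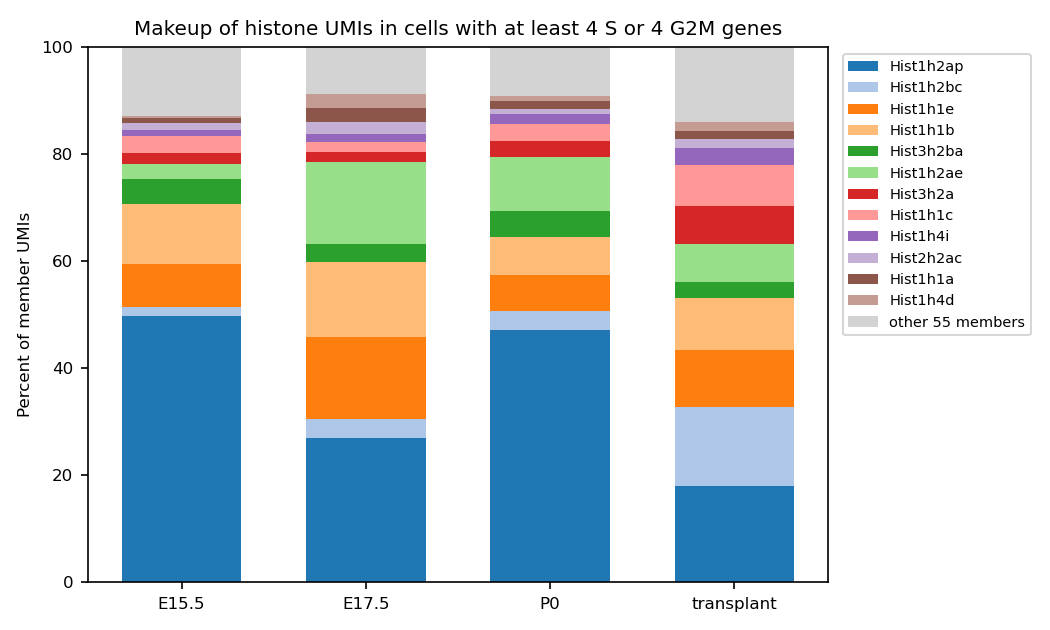
Percent of member UMIs taken by each of the 12 members with the most UMIs, and by the other 55 together, in cells with at least 4 S or 4 G2M genes, by library. Bars start at 0 and sum to 100. Hist1h2ap takes 49.8% in E15.5 and 47.1% in P0 but 26.9% in E17.5 and 18% in the transplant, where Hist1h2bc takes 14.7%.

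Genes that act on histones were read in the same S-scored and low-scored cells. Of 19 histone mRNA processing genes in the tables, 18 were counted. At least 2-fold higher in S-scored cells were 4 in E15.5, 5 in E17.5, 5 in P0 and 4 in the transplant, with none 2-fold lower. Over all genes counted, 6.62%, 9.75%, 7.29% and 8.41% were at least 2-fold higher, and 8.71%, 13.9%, 14.2% and 8.7% at least 2-fold lower. Slbp, which encodes the stem-loop binding protein, stood at 2.69, 3.05, 2.45 and 2.44 times its low-scored level. Eri1, an exonuclease that trims histone mRNA ends, was at 2.71, 3.04, 2.50 and 2.46, and Casp8ap2, which takes part in histone mRNA 3′ processing, at 2.90, 3.13, 2.81 and 2.05. These 3 and Cdk2 are named because they passed 2-fold in all 4 libraries. Slbp in S-scored cells was at 213 CPM in the transplant and 207 at P0. Its relation to the level of Hist1h2ap was not tested.

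Of 16 histone chaperones, which hand new histones to DNA, 8, 9, 9 and 7 were at least 2-fold higher in S-scored cells and none lower. The shares of all genes at least 2-fold higher, for this list and the next, were 6.62%, 9.75%, 7.29% and 8.41%. Nasp, which holds H3 and H4, was at 4.37, 5.74, 5.17 and 3.13 times, and the assembly factor subunit Chaf1b at 9.33, 18.8, 12.1 and 11.9. Of 11 replacement histone genes, which are mostly polyadenylated and are made also outside S phase, 3, 6, 7 and 4 were at least 2-fold higher. H2afz stood at 2.94, 4.14, 3.70 and 2.73 times, while H3f3b was at 1.10, 1.05, 0.963 and 1.02. Among the cell cycle inhibitors Cdkn1c, which encodes p57, was at 0.242, 0.120, 0.153 and 0.167 times, lower in S-scored cells in all 4 libraries. Of the 16 dissociation stress genes none was 2-fold higher in S-scored cells, and 2, 3, 4 and 0 were 2-fold lower. Among all genes 8.71%, 13.9%, 14.2% and 8.7% were 2-fold lower, so counts among 16 genes are not read as a trait of that list.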

How the data were processed

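UMI counts per gene and cell barcode were deposited by the authors, 1 matrix per library, and counted with Cell Ranger 3.1.0 on GRCm38 per the submitters' processing notes. Per the file headers the E17.5 and transplant matrices were made with version 3.1.0, and the other two with 3.0.2. Annotation, strand and the treatment of shared reads are not given in the sources used here. A joined matrix of 3 libraries was not used.

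Cells were kept that had 500 or more genes and no more than 20% mitochondrial UMIs, and the highest Scrublet scores (scanpy 1.11.5) were removed at 0.8% per 1000 cells. The libraries held 4158, 5551, 10810 and 7670 barcodes, and 3329, 4024, 6903 and 4546 of the cells used had the 3000 UMIs needed for thinning (without replacement). Levels are the summed unthinned counts of a group of cells per 1000000 of its UMIs (CPM), not divided by gene length. Counts carry exact Poisson, shares exact Clopper-Pearson and ratios exact conditional binomial 95% intervals (scipy 1.17.1), which cover counting error only. The ratio step was tested on simulated data. Gene models and stem-loops were read from the GENCODE annotation (release M21) and transcripts on GRCm38, and promoters from RefSeq (GRCm38.p6).

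Members and gene lists were chosen with earlier results of these data known. Members with at least 200 UMIs could be named, the 12 with the most in full, and in a comparison the 3 highest and 3 lowest of those with at least 50 UMIs by the interval bound nearest 1; members of the S comparison named beyond this were named for the counts they make up. From each list the text names genes it turns on. Hist3h2ba, Hist2h3c2, Hist3h2a with its neighbour, and the head-to-head pairs were singled out after their values had been seen. Alternatives changed the cell filters, doublet removal, pooling, scaling, class rule, score rule, count minimum, search window and the members summed.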

Additional observations from a re-analysis of the deposited data

Results flagged for a closer look

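The summed level of all members in S-scored over low-scored cells was 0.936 in the transplant, below 1, while it was 3.47 in E15.5, 3.06 in E17.5 and 3.12 in P0. The opposite direction drew attention, and the difference between libraries was not tested, since each group is 1 library. Hist2h2aa1, an H2A gene whose model shares its whole 3′ end with Hist2h2aa2, had a ratio of 0.459 at E17.5 (0.237 to 0.851, on 16 UMIs in S-scored and 35 in low-scored cells) and of 2.52 at E15.5 (1.5 to 4.53). Its intervals at P0 (0.904 to 1.72) and in the transplant (0.315 to 2.06) held 1, and this difference was not tested either. With 1 library a group, no spread between samples is known for any of these values.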

How the results depend on the processing

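No paired analysis was possible because each group is 1 library. The median over 45 class and library pairs of the summed histone level was 933 CPM. It was 774 with the mean of per-cell shares, 774 with 1 more marker needed for a class, 592 without Hist1h2ap and 968 without Ccnd1 among the markers, an alternative added after the data had been seen. Without Hist1h2ap, P0 was below E15.5 in 3 classes and not 6, the median P0 over E15.5 ratio was 1.06 and not 0.894, mural-like cells went from 0.926 to 1.14, and transplant over P0 in endothelium-like cells from 0.870 to 1.15. Without Ccnd1, mural-like cells were at 1.09. E17.5 was below E15.5 in 1 class and not 0 with the mean of per-cell shares, and also in 1 without the polyadenylated members (added after the data had been seen). Without those members, nephron progenitor-like cells went from 1.04 to 0.956 for P0 over E15.5, proximal tubule-like cells from 1.13 to 0.508 for transplant over P0, and the transplant's S-scored over low-scored ratio from 0.936 to 2.06. That ratio was 1.16 with cells thinned to 2000 UMIs, so that in both cases 4 libraries and not 3 were above 1. Over all alternatives it ranged from 1.82 to 5.10 at E15.5, 2.28 to 6.08 at E17.5, 1.64 to 6.34 at P0 and 0.822 to 2.06 in the transplant. Members at least 2-fold higher in all 4 libraries numbered 24 and not 6 when 1 UMI sufficed, with 44 and not 25 at E17.5 and 34 and not 9 in the transplant, and the last was 5 with cells thinned to 5000 UMIs. The stem-loop share was 46.3% in a window of 50 bases and 67.2% in 200. Fewer members, cells or bases entered in the alternatives that left them out, and for the others the cause was not tested. Of the other values 97 main ones and 50 further ones stayed within 1.5 times or their interval. The depth limits members under 200 UMIs most, in the transplant above all.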
